A study of Mus musculus with 12 samples.

Results

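The 47 genes described here encode enzymes, membrane proteins and acidification subunits of the lysosome, together with Tfeb, a transcription factor of lysosomal genes. They were chosen by name, as every probe whose gene name on the array was 1 of these 47 symbols, out of 34836 gene names on the array. All 47 were present, on 63 probes. The cells were mouse embryonic stem (ES) cells carrying Gata6GR, a transgene that fuses the transcription factor Gata6 to the ligand-binding domain of the glucocorticoid receptor, so that dexamethasone (Dex) moves Gata6 activity into the nucleus and the cells become XEN-like, that is, resembling extraembryonic endoderm. In the Sox7 (+/−) line 1 Sox7 allele had its coding region replaced by a puromycin resistance cassette, and the Sox7 (−/−) line was 1 derivative of that same line obtained by high-dose puromycin selection, so both genotypes carry the targeted allele and the transgene and no Sox7 wild-type line was included. Each genotype was collected at day 4 without Dex (ES cells) and with Dex (XEN-like cells), with 3 samples in each of the 4 groups, 12 one-colour arrays in all. Each genotype is thus represented by 1 clone, and a difference between the genotypes cannot be told apart from a difference between the clones. All 12 samples carried Gata6GR, so an effect of Dex itself cannot be told apart from one of Gata6.

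Lysosomes are acidic compartments in which proteases, glycosidases, sulfatases and lipases break down material delivered by endocytosis and autophagy. Their membrane is covered by heavily glycosylated proteins such as Lamp1 and Lamp2, and the V-ATPase pumps in the protons on which the enzymes depend. Many lysosomal genes carry a palindromic element called CLEAR, whose core is the E-box CACGTG, and Tfeb binds it. Extraembryonic endoderm, above all the visceral endoderm, is known for its strong endocytic uptake and large lysosomes, which makes the lysosomal genes a natural set to read in cells driven towards this lineage.

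The promoter letters of 5 members are shown first, because they include the CACGTG core and because the members differ in how they behaved. RefSeq promoter sequences (build GRCm38.p6, 250 bases before the listed start) matched 41 of the 47 members in 47 windows, and Ctsb, Ctse, Ctsh, Asah1, Atp6v1b2 and Atp6v1h were not matched. Sequences run 5′ to 3′ on the gene's strand, and capitals mark CACGTG or, in Cln3, also the CLEAR flanks, GT before and AC after it. Naglu, the member with the largest mean rise after Dex, lies at chr11:101069844-101070093 on the plus strand. Mcoln1 (chr8:3500269-3500518, plus) and Lamp1 (chr8:13158911-13159160, plus) are membrane proteins with 2 and 4 copies of the core. Cln3 (chr7:126583237-126583486, minus) was the member with the full CLEAR letters and was called in no comparison. Ctsc (chr7:88277835-88278084, plus), the member that fell most after Dex in Sox7 (+/−) cells, has no CACGTG in its window.
Naglu: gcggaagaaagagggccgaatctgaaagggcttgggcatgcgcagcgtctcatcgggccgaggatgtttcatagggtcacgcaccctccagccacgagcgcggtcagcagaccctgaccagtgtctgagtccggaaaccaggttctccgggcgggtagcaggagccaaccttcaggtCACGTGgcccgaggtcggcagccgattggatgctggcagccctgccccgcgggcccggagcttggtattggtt
Mcoln1: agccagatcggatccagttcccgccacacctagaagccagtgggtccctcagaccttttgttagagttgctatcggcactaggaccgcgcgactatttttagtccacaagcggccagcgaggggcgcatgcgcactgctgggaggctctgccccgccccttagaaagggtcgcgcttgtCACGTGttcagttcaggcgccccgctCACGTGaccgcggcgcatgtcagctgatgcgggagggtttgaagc
Lamp1: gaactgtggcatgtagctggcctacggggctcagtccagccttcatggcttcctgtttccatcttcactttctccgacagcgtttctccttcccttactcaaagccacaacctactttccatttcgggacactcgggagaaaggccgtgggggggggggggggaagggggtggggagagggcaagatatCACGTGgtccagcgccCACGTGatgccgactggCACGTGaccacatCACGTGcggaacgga
Cln3: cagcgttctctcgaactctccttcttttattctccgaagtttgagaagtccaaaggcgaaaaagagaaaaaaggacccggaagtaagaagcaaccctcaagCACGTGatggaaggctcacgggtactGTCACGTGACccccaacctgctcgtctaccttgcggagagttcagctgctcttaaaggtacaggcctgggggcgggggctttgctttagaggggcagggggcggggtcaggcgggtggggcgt
Ctsc: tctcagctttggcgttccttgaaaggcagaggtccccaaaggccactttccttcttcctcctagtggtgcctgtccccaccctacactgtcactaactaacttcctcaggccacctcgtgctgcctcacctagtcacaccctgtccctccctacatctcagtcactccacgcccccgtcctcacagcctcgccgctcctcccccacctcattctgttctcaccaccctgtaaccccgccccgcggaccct
CACGTG, which reads the same on both strands, was in 14 of the 47 member windows (29.8%), against 1978 of 32851 windows of the same length over all genes (6.02%). The 14 genes were Arsa, Atp6v1a, Cln3, Ctsa, Ctsd, Ctsf, Ctsl, Gaa, Gla, Glb1, Lamp1, Lgmn, Mcoln1 and Naglu. The CLEAR letters, CACGTG with GT before and AC after, were in 1 member window, 2.13%, and in 0.24% of all windows. GATA with A or T before it and A or G after it, the letters that GATA factors recognise, was in 10 member windows on either strand (21.3%), against 26.5% of all windows. These are matches of letters in a fixed window and not measured binding sites.

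Values are log2 signals relative to the 75th percentile of the same array, so 0 is the level of the 75th percentile probe, and a gene is read by its brightest probe. Levels of different genes are not set against each other, since probes differ in brightness. A gene was called higher or lower when the Benjamini-Hochberg adjusted p of limma was below 0.05 and the difference exceeded 2-fold, fitted over all 25940 probes well above background in at least 1 group. Of the 47 members, 43 were tested. Ctse, Ctso and Ctss were not well above background on any array, and Ctsk was on 1 Sox7 (+/−) XEN-like array, so these 4 proteases have no comparison. The Dex response is XEN-like minus ES within a genotype, and the genotype comparisons are Sox7 (−/−) minus Sox7 (+/−); all these comparisons share arrays with each other.

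The arrays carried the cell states of their labels. Sox7 itself (probe at chr14:64569419-64569478, build mm9) was well above background on all 6 Sox7 (+/−) arrays and on none of the 6 Sox7 (−/−) arrays, a difference of at least 24.7-fold between the ES groups and of at least 73.6-fold between the XEN-like groups. Whether the probe lies inside the deleted part was not tested. All 5 ES cell markers (such as Nanog and Sox2, neither of which exceeded background on any XEN-like array) fell in both Dex responses, while 4 of 6 extraembryonic endoderm markers rose in Sox7 (+/−) cells and 5 of 6 in Sox7 (−/−) cells. The source labels of the 3 Sox7 (+/−) ES samples all carry the replicate number 1 although their titles count 1 to 3, so p-values may measure only technical spread. The arrays lay on 2 slides, of which slide 1 held 4, namely all Sox7 (−/−) ES samples plus the first Sox7 (−/−) XEN-like replicate, and slide 2 held 8. In bulk samples such as these, fewer cells of a type and less RNA per cell cannot be told apart.

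Sox7 (+/−) XEN-like replicate 3 stood apart. It correlated at r = 0.982 and 0.983 with its 2 replicates, whereas the other replicate pairs lay at 0.993 to 0.996 over all probes tested. It was the lowest array of its group for 35 of the 43 members, by a median of −0.50 log2 units from the mean of the other 2, and 23 members lay more than 0.5 log2 units away, as did 26.7% of all probes tested. On any other array 0 to 4 members did. Pou5f1, an ES cell factor, stood at 0.82 on it against −0.71 and −0.49 on its replicates. The same gene also varied among the Sox7 (−/−) XEN-like arrays (2.15, 1.01 and 0.57). The other ES cell markers did not stand out: Zfp42 was at 1.46 against 1.38 and 1.30, and Esrrb at −2.57 against −2.43 and −2.70. Nanog and Sox2 were not well above background on any of the 3 arrays. Of 7 trophoblast markers, Gcm1 stood above the 7.44 and 7.17 of its replicates and made up nearly all of the list's summed level (512 times the array's 75th percentile, against 174 and 144). The probe read for Gcm1, 1 of 4 under that name, is placed at chr7:123731567-123731626 (build mm9). It was also bright in ES cells (means 6.92 and 6.44), and whether it reads Gcm1 was not tested. Eomes stood at −0.96 against −1.03 and −1.13, and Cdx2, Elf5, Tpbpa and Hand1 were not well above background on any of the 3 arrays. The part of these in the members' values was not tested. Results that rest on this array are given with and without it.

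**Figure D1:**
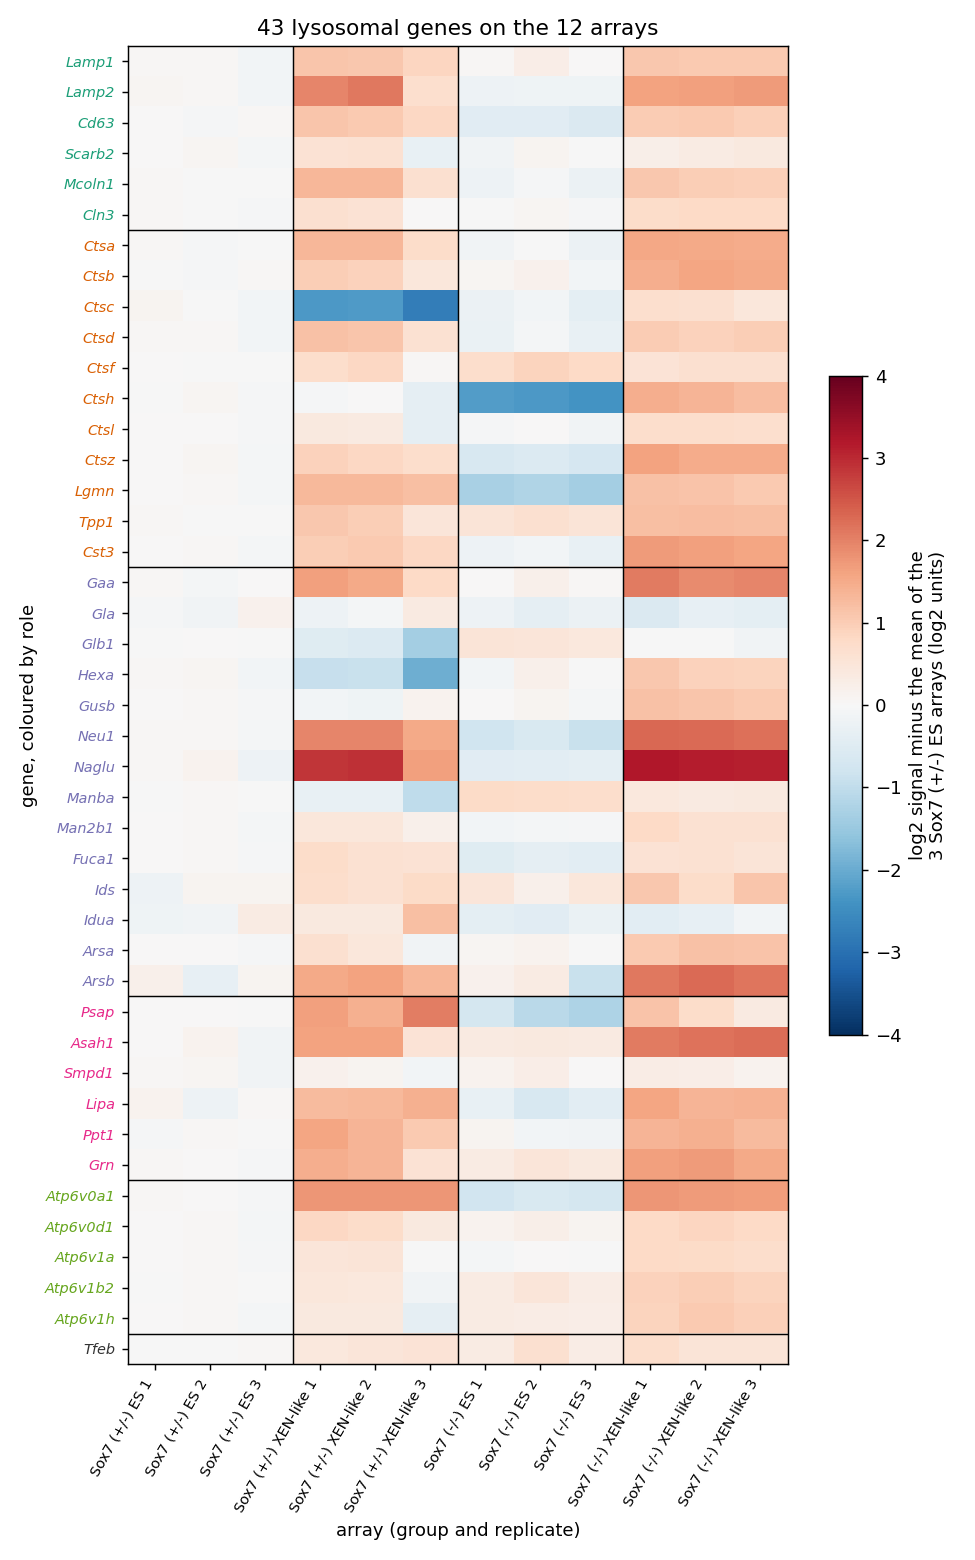
Colours show, for the 43 lysosomal genes tested, the log2 signal of each of the 12 arrays minus the mean of the 3 Sox7 (+/−) ES arrays, with genes grouped by role. Most genes are higher in both XEN-like groups, Sox7 (+/−) XEN-like replicate 3 is paler than its replicates for many genes, and Ctsc and Hexa are lower in Sox7 (+/−) but not in Sox7 (−/−) XEN-like cells.

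After Dex more lysosomal genes were called higher than lower in both genotypes. In Sox7 (+/−) cells 15 of the 43 tested members were called higher (34.9%, with 11.0% of all genes called higher) and 2 were called lower (4.65%, with 14.0% of all genes). In Sox7 (−/−) cells 22 were called higher (51.2%, against 14.5% of all genes) and 0 lower (14.1% of all genes). The median member rose by 0.69 log2 units in Sox7 (+/−) cells, where the median of all genes was 0.16, and by 1.05 in Sox7 (−/−) cells, where it was 0.07. With no minimum fold, 34 and 36 members passed the adjusted p threshold, 30 upward (38.6% of all genes) and 4 downward (25.4%) in Sox7 (+/−) cells, and 35 upward (34.4%) and 1, Glb1, downward (31.9%) in Sox7 (−/−) cells. Members whose 3 XEN-like arrays were all above their 3 ES arrays numbered 28 in Sox7 (+/−) cells (41.8% of all genes did so) and 36 in Sox7 (−/−) cells (39.2%), and those with all 3 below numbered 4 (27.1%) and 3 (35.7%).

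The 14 members called higher in both genotypes were Lamp2, Mcoln1, Ctsa, Lgmn, Gaa, Neu1, Naglu, Arsb, Psap, Asah1, Lipa, Ppt1, Grn and Atp6v0a1. A further 8 passed only in Sox7 (−/−) cells (Cd63, Ctsb, Ctsd, Ctsh, Ctsz, Cst3, Gusb and Arsa) and Lamp1 only in Sox7 (+/−) cells, although Cd63, Ctsd, Cst3 and Lamp1 were close to 2-fold in the other genotype. Whether a response differed between the genotypes is a separate test, given further on. Without Sox7 (+/−) XEN-like replicate 3, 19 members were called higher and 1 lower in Sox7 (+/−) cells, with Cd63, Ctsd, Tpp1 and Cst3 added to the rises and Hexa no longer called lower, and the median was 0.79. The count in Sox7 (+/−) cells depended on scaling: with the arrays scaled on spike-in controls, which moved the median of all genes from 0.16 to −0.32, 6 members were called higher and 4 lower. The shares of all genes called without replicate 3 or with spike-in scaling are not given here, so these counts are not set against them.

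**Figure D2:**
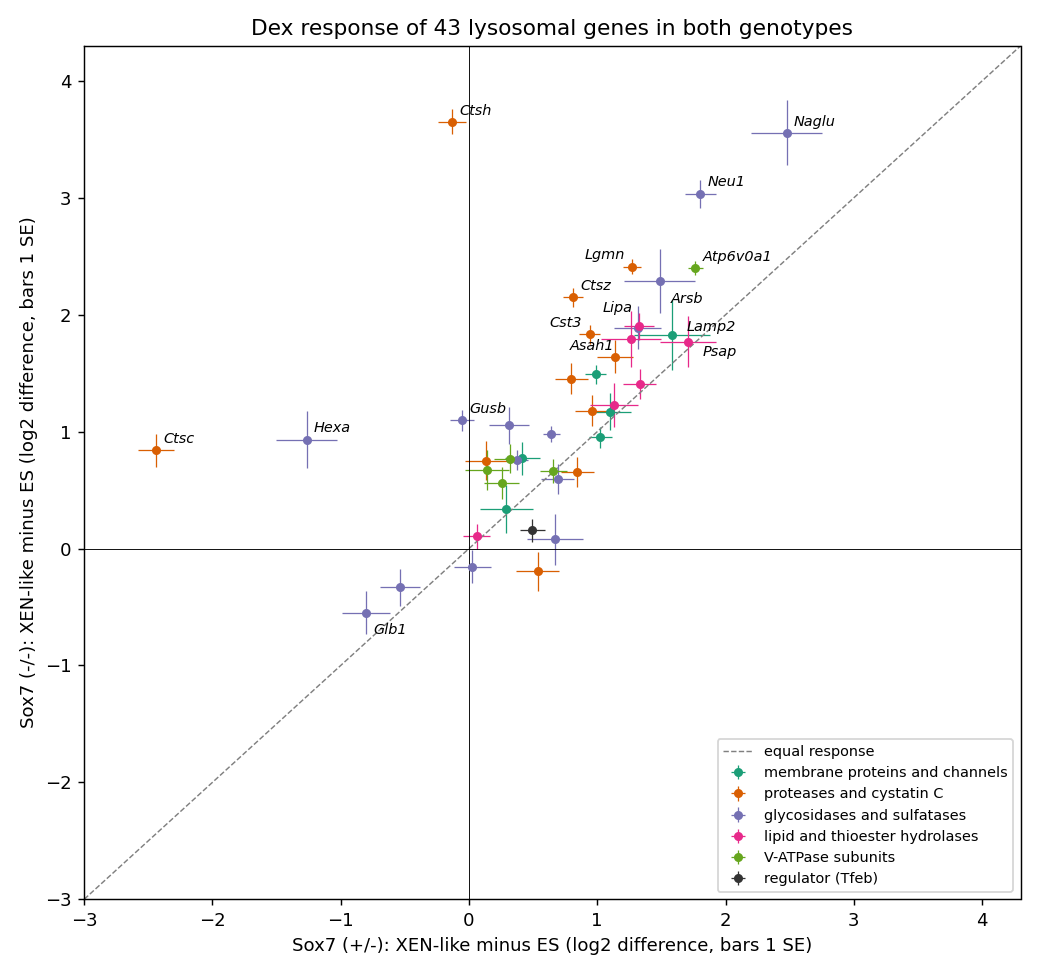
Each point is 1 of 43 lysosomal genes, placed by its Dex response in Sox7 (+/−) cells (horizontal) and in Sox7 (−/−) cells (vertical), both as log2 XEN-like minus ES with bars of 1 SE, and coloured by role. Naglu rose most in Sox7 (+/−) cells (2.48) and Ctsh most in Sox7 (−/−) cells (3.65), and Ctsc (−2.44) and Hexa (−1.27) are the points far left of 0.

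Among the membrane proteins and channels, 3 of 6 rose in each genotype (50.0%, beside 11.0% and 14.5% of all genes). Lamp2, a major glycoprotein of the lysosomal membrane that is also needed for chaperone-mediated autophagy, stood at 2.56, 2.55 and 2.37 in Sox7 (+/−) ES cells and 4.46, 4.60 and 3.17 in XEN-like cells. In Sox7 (−/−) cells it stood at 2.30, 2.31 and 2.34 before and 4.11, 4.12 and 4.20 after Dex. The groups do not overlap in either genotype, and the lowest XEN-like array was Sox7 (+/−) replicate 3. The rise was 1.58 (SE 0.30, adjusted p = 0.000962) in Sox7 (+/−) cells, or 2.04 without that array, and 1.83 (SE 0.30, adjusted p = 0.000308) in Sox7 (−/−) cells. Mcoln1, the calcium-permeable channel TRPML1 of the lysosomal membrane, rose by 1.10 (SE 0.16, adjusted p = 0.000165) and 1.17 (SE 0.16, adjusted p = 8.88e-05). Its call in Sox7 (+/−) cells was at the 2-fold limit and was lost without XEN-like replicate 1 (0.99) or replicate 2 (0.99). Lamp1, the other abundant membrane glycoprotein, changed by 1.02 (SE 0.09, adjusted p = 3.97e-06) and 0.95 (SE 0.09, adjusted p = 5.56e-06), just above and just below 2-fold. Without Sox7 (+/−) ES replicate 3 or XEN-like replicate 1 or 2 its first value was 0.97 to 0.99, and without Sox7 (−/−) ES replicate 2 its second was 1.02. Cd63, a tetraspanin of late endosomes and lysosomes, was at 0.99 (SE 0.08, adjusted p = 2.49e-06) in Sox7 (+/−) cells and rose by 1.49 (SE 0.08, adjusted p = 8.65e-08) in Sox7 (−/−) cells; its first value was 1.01 without ES replicate 3 and 1.07 without XEN-like replicate 3. Scarb2, which carries glucocerebrosidase to the lysosome, and Cln3, a membrane protein mutated in juvenile Batten disease, were not called.

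Of the proteases and their inhibitor, 11 of 15 were measured, and 2 rose and 1 fell in Sox7 (+/−) cells whereas 7 rose and 0 fell in Sox7 (−/−) cells. The shares in Sox7 (+/−) cells, 18.2% higher and 9.09% lower, were near those of all genes (11.0% and 14.0%), and in Sox7 (−/−) cells 63.6% were higher (14.5% of all genes). Lgmn, legumain, an asparaginyl endopeptidase that trims cathepsins to their mature form, was at 6.68, 6.68 and 6.58 in Sox7 (+/−) ES cells and 7.95, 7.95 and 7.86 in XEN-like cells, and at 5.37, 5.43 and 5.28 and then 7.83, 7.78 and 7.70 in Sox7 (−/−) cells. The 2 XEN-like groups lie close together, and the ES groups lie apart. Its rise was 1.27 (SE 0.07, adjusted p = 9.34e-08) in Sox7 (+/−) and 2.41 (SE 0.07, adjusted p = 7.29e-10) in Sox7 (−/−) cells.

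Ctsh, cathepsin H, an aminopeptidase (probe at chr9:89970828-89970887, build mm9), showed the largest difference between the genotypes. In Sox7 (+/−) cells it was level, at 5.16, 5.26 and 5.14 before and 5.14, 5.19 and 4.82 after Dex. In Sox7 (−/−) cells it started lower, at 2.94, 2.90 and 2.79, and ended higher, at 6.64, 6.53 and 6.40, above every Sox7 (+/−) array. The Dex response was −0.13 (SE 0.11, adjusted p = 0.298) in Sox7 (+/−) cells and 3.65 (SE 0.11, adjusted p = 9.58e-10) in Sox7 (−/−) cells.

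Ctsc, cathepsin C, the dipeptidyl peptidase that activates serine proteases (probe at chr7:95458436-95458495, build mm9), was the member with the largest mean fall. It stood at 2.51, 2.38 and 2.27 in Sox7 (+/−) ES cells and at 0.09, 0.13 and −0.39 in XEN-like cells, and it fell by 2.44 (SE 0.14, adjusted p = 1.8e-07), or by 2.27 without XEN-like replicate 3. In Sox7 (−/−) cells it was at 2.14, 2.26 and 1.99 before and 3.05, 3.02 and 2.83 after Dex, a change of 0.84 (SE 0.14, adjusted p = 0.00042) that did not reach 2-fold. The 2 ES groups lie next to each other, the lowest Sox7 (+/−) array just above the highest Sox7 (−/−) array, and the 2 XEN-like groups lie far apart. Ctsz, cathepsin Z, a carboxypeptidase, changed by 0.81 (SE 0.08, adjusted p = 7.84e-06) in Sox7 (+/−) cells and rose by 2.15 (SE 0.08, adjusted p = 4.26e-09) in Sox7 (−/−) cells. The other proteins called in this group were Ctsa, the carboxypeptidase that protects neuraminidase, Ctsb and Ctsd, the main cysteine and aspartic proteases, and Cst3, a secreted cystatin that inhibits cathepsins. They rose by 1.18 (Ctsd) to 1.83 (Cst3) in Sox7 (−/−) cells, and stood between 0.80 (Ctsb) and 1.14 (Ctsa, called) in Sox7 (+/−) cells. A second, dimmer Ctsa probe gave 0.57 and 0.37 and was not called. Ctsf, Ctsl and Tpp1 were called in no comparison.

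Of the 14 glycosidases and sulfatases, 4 rose and 1 fell in Sox7 (+/−) cells (28.6% and 7.14%, beside 11.0% and 14.0% of all genes) and 6 rose and 0 fell in Sox7 (−/−) cells (42.9% higher, beside 14.5%). Naglu, which removes N-acetylglucosamine from heparan sulfate (probe at chr11:100938631-100938690, build mm9), had the largest mean rise over both genotypes. Sox7 (+/−) ES arrays stood at −0.02, 0.07 and −0.28 and XEN-like arrays at 2.77, 2.86 and 1.57. Sox7 (−/−) ES arrays stood at −0.52, −0.50 and −0.45 and XEN-like arrays at 3.12, 3.05 and 3.03. No XEN-like array overlaps an ES array, and the widest spread was that of the Sox7 (+/−) XEN-like group through replicate 3. The rise was 2.48 (SE 0.28, adjusted p = 2.45e-05, 5.57-fold) and 3.56 (SE 0.28, adjusted p = 1.25e-06, 11.8-fold), and 2.89 in Sox7 (+/−) cells without replicate 3.

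Neu1, the lysosomal neuraminidase that removes sialic acid, stood at 4.67, 4.68 and 4.57 in Sox7 (+/−) ES cells and 6.58, 6.59 and 6.15 in XEN-like cells, and at 3.83, 4.02 and 3.74 and then 6.95, 6.89 and 6.85 in Sox7 (−/−) cells. It rose by 1.80 (SE 0.12, adjusted p = 4.95e-07) and 3.04 (SE 0.12, adjusted p = 8.04e-09). Gaa, the acid α-glucosidase that degrades glycogen, rose by 1.31 (SE 0.18, adjusted p = 0.000129) and 1.89 (SE 0.18, adjusted p = 7.06e-06). Arsb, a sulfatase of dermatan and chondroitin sulfate, was dim: it was not well above background on any ES array, so it was at least 2.33-fold higher in Sox7 (+/−) XEN-like cells (2 of 3 arrays above background, adjusted p = 0.000891) and at least 2.57-fold higher in Sox7 (−/−) XEN-like cells (adjusted p = 3.48e-05). These are bounds, the bright group's mean over the lowest signal that counted as above background.

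Hexa, the α subunit of β-hexosaminidase, which degrades GM2 ganglioside (probe at chr9:59411712-59411771, build mm9), stood at 4.64, 4.66 and 4.49 in Sox7 (+/−) ES cells and 3.67, 3.69 and 2.63 in XEN-like cells. In Sox7 (−/−) cells it stood at 4.50, 4.81 and 4.58 before and 5.68, 5.53 and 5.48 after Dex. The ES groups overlap and the XEN-like groups moved apart in opposite directions. It fell by 1.27 (SE 0.24, adjusted p = 0.00105) in Sox7 (+/−) cells, but by 0.92, under 2-fold, without XEN-like replicate 3. In Sox7 (−/−) cells the change was 0.93 (SE 0.24, adjusted p = 0.00605), which passed 2-fold with slide as a block (1.05) and without ES replicate 2 (1.02). Gusb, β-glucuronidase, was level in Sox7 (+/−) cells, at 1.63, 1.68 and 1.59 and then 1.52, 1.45 and 1.77, and higher in the 3 Sox7 (−/−) XEN-like arrays (2.80, 2.75 and 2.68) than in the ES arrays (1.65, 1.74 and 1.55). Its Dex response was −0.05 (SE 0.09, adjusted p = 0.617) and 1.10 (SE 0.09, adjusted p = 1.86e-06). A second Gusb probe elsewhere in the gene, which was dimmer, gave 0.23 and 0.57 and was not called, and with the median over both probes the response in Sox7 (−/−) cells was 0.83, under 2-fold. Arsa, arylsulfatase A, was at 0.31 (adjusted p = 0.11) and 1.05 (adjusted p = 0.000177), the latter 0.97 with slide as a block. Gla, Glb1, Manba, Man2b1, Fuca1, Ids and Idua were called in no comparison by their brightest probe, but a second Idua probe rose in both genotypes (1.11 and 1.83) while the brightest gave 0.67 and 0.08, so the probes of Idua disagree.

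The enzymes and cofactors of lipid and thioester breakdown rose in both genotypes, 5 of 6 in each (83.3%, beside 11.0% and 14.5% of all genes), and Smpd1, acid sphingomyelinase, was not called. Psap, the precursor of the saposins that present sphingolipids to their hydrolases, stood at 2.19, 2.18 and 2.15 in Sox7 (+/−) ES cells and 3.81, 3.60 and 4.23 in XEN-like cells, and at 1.46, 1.09 and 0.92 and then 3.33, 2.91 and 2.54 in Sox7 (−/−) cells. All XEN-like arrays lie above all ES arrays, and in each state every Sox7 (−/−) array lies below every Sox7 (+/−) array. It rose by 1.71 (SE 0.22, adjusted p = 6.29e-05) and 1.77 (SE 0.22, adjusted p = 4.03e-05). Asah1, acid ceramidase, rose by 1.26 (SE 0.24, adjusted p = 0.000942) and 1.79 (SE 0.24, adjusted p = 6.7e-05). Lipa, lysosomal acid lipase, which frees cholesterol from its esters, rose by 1.32 (SE 0.12, adjusted p = 4.1e-06) and 1.90 (SE 0.12, adjusted p = 2.03e-07). Ppt1, which removes palmitate from proteins, rose by 1.33 (SE 0.13, adjusted p = 7.84e-06) and 1.40 (SE 0.13, adjusted p = 4.12e-06). Grn, progranulin, a glycoprotein delivered to lysosomes, rose by 1.13 (SE 0.19, adjusted p = 0.000408) and 1.23 (SE 0.19, adjusted p = 0.000197), the first of which was 0.97 without XEN-like replicate 1.

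Of the 5 V-ATPase subunits only Atp6v0a1 was called (20.0%, beside 11.0% and 14.5% of all genes). This membrane subunit of the proton channel stood at 4.35, 4.33 and 4.27 in Sox7 (+/−) ES cells and 6.08, 6.09 and 6.08 in XEN-like cells. In Sox7 (−/−) cells it stood at 3.56, 3.71 and 3.62 before and 6.07, 6.03 and 5.98 after Dex. The ES groups lie apart, and the XEN-like groups lie side by side. The rise was 1.77 (SE 0.06, adjusted p = 4.33e-09) and 2.40 (SE 0.06, adjusted p = 3.8e-10). Atp6v0d1, Atp6v1a, Atp6v1b2 and Atp6v1h were called in no comparison. Tfeb was at 0.50 (SE 0.10, adjusted p = 0.00136) in Sox7 (+/−) cells and 0.16 (SE 0.10, adjusted p = 0.181) in Sox7 (−/−) cells, under 2-fold in both. In all, 18 members were called in no comparison, with Dex responses from −0.80 (Glb1) to 0.85 (Tpp1) in Sox7 (+/−) cells and from −0.55 (Glb1) to 0.98 (Fuca1) in Sox7 (−/−) cells.

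Among members with CACGTG in the window, 6 of 14 were called higher in Sox7 (+/−) cells (11.0% of all genes) and 7 of 14 in Sox7 (−/−) cells (14.5% of all genes). Among members without it, the counts were 8 of 24 and 12 of 24, and 5 tested members had no promoter sequence. The shares are near each other, and they were not tested.

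The Dex response itself differed between the genotypes for 7 members, all of them larger in Sox7 (−/−) cells (16.3%, with 6.99% of all genes called higher and 3.15% called lower). They were the proteases Ctsh (difference in log2 response 3.78, SE 0.15, adjusted p = 2.39e-07), Ctsc (3.28, SE 0.20, adjusted p = 2.66e-06), Ctsz (1.34, SE 0.11, adjusted p = 1.87e-05) and Lgmn (1.14, SE 0.10, adjusted p = 2.15e-05), and the glycosidases Hexa (2.20, SE 0.34, adjusted p = 0.00116), Neu1 (1.23, SE 0.17, adjusted p = 0.000579) and Gusb (1.15, SE 0.13, adjusted p = 0.000137). The median difference over the 43 members was 0.38, where that over all genes was −0.10. With no minimum fold 15 members had a larger (13.1% of all genes) and 1 a smaller response (15.7%) in Sox7 (−/−) cells. Without Sox7 (+/−) XEN-like replicate 3 the count was again 7, with a median of 0.27, and Hexa was at 1.85. With spike-in scaling, which moved the median of all genes to 0.31, 12 members were called. The second Gusb probe gave 0.34 and was not called, and the median over both probes 0.75. Naglu, at 1.08 (SE 0.39, adjusted p = 0.0665), missed the threshold with all arrays; it was called without Sox7 (+/−) XEN-like replicate 1 (1.27) or replicate 2 (1.31), and was 0.66 without replicate 3. No member of the membrane, lipid or V-ATPase groups was called in this comparison.

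**Figure D3:**
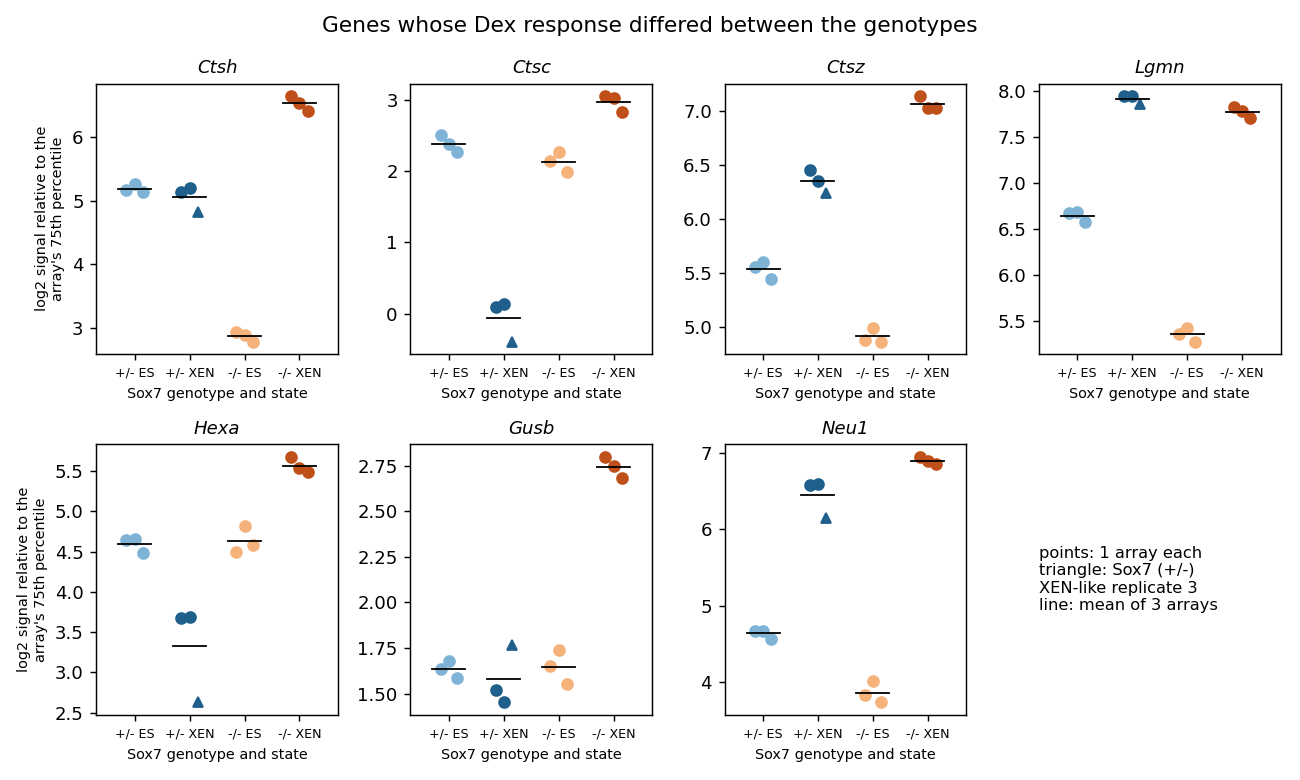
Log2 signal relative to the array's 75th percentile for the 7 genes whose Dex response differed between the genotypes, with 1 point per array, a line at the mean of 3 arrays, and a triangle for Sox7 (+/−) XEN-like replicate 3. Ctsh and Lgmn were called between the ES groups, Ctsh, Ctsc, Hexa and Gusb between the XEN-like groups, and Ctsc and Hexa move in opposite directions in the 2 genotypes.

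The genotypes were also compared in each state. Between the XEN-like groups 4 members were called higher in Sox7 (−/−) cells (9.30%, with 4.13% of all genes) and 0 lower (3.40% of all genes). They were Ctsc at 3.02 (SE 0.14, adjusted p = 5.77e-07), Hexa at 2.23 (SE 0.24, adjusted p = 0.000103), Ctsh at 1.48 (SE 0.11, adjusted p = 7.54e-06) and Gusb at 1.16 (SE 0.09, adjusted p = 1.15e-05). On slide 2 alone, which holds 2 Sox7 (−/−) and 3 Sox7 (+/−) XEN-like arrays, the same genes stood at 2.98, 2.18, 1.42 and 1.14 and were called, and without Sox7 (+/−) XEN-like replicate 3 at 2.86, 1.88, 1.36 and 1.26. The second Gusb probe gave 0.53 and was not called, and with the median over both probes Gusb was at 0.85, under 2-fold. The median over the 43 members was 0.37, against 0.01 over all genes, but 0.22 without replicate 3. With no minimum fold 18 members were higher (20.2% of all genes) and 3 lower (15.1%), and the arrays of the 2 groups did not overlap for 24 higher (26.2%) and 5 lower members (21.0%). Psap was lower in Sox7 (−/−) XEN-like cells, at −0.95 (SE 0.22, adjusted p = 0.00794), under 2-fold; it was called lower on slide 2 alone and with slide as a block (both −1.16), without Sox7 (+/−) XEN-like replicate 2 (−1.09) and without Sox7 (−/−) XEN-like replicate 1 (−1.16).

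Between the ES groups 3 members were called lower in Sox7 (−/−) cells (6.98%, with 6.57% of all genes called lower) and 0 higher (1.96% of all genes). They were Ctsh at −2.31 (SE 0.11, adjusted p = 2.05e-07), Lgmn at −1.29 (SE 0.07, adjusted p = 5.14e-07) and Psap at −1.01 (SE 0.22, adjusted p = 0.00395). The call of Psap was lost without Sox7 (−/−) ES replicate 2 (−0.98) or replicate 3 (−0.90). All Sox7 (−/−) ES arrays lay on slide 1 and all Sox7 (+/−) ES arrays on slide 2, and with slide as a block, estimated through the Sox7 (−/−) XEN-like arrays, the values were −2.48, −1.38 and −1.61. With no minimum fold 6 members were higher (30.1% of all genes) and 9 lower (16.5%), and the arrays did not overlap for 11 higher (42.8%) and 16 lower members (24.3%). The share of members called lower was near that of all genes, and the median was −0.06, against 0.11 over all genes.

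Markers of other cell types moved in the same comparisons, those of visceral endoderm among them. Of 8 visceral endoderm markers tested of 10 listed, 5 were called higher in Sox7 (−/−) XEN-like cells (4.13% of all genes). Called lower in Sox7 (−/−) ES cells were 5 (6.57%), and 7 had a larger Dex response in Sox7 (−/−) cells (6.99%). Apob, 1 of these 7, was above background only in Sox7 (+/−) ES cells, so its larger response is a smaller fall at background. In Sox7 (+/−) cells the means of Cubn and Amn fell (5.44 to 3.60 and 4.44 to 2.36), while those of Hnf4a, Ttr, Lrp2 and Ihh rose. The summed level of the 10 visceral endoderm markers was 254 to 267 times the array's 75th percentile in Sox7 (+/−) ES cells, 263 to 366 in Sox7 (+/−) XEN-like cells, 181 to 192 in Sox7 (−/−) ES cells and 492 to 523 in Sox7 (−/−) XEN-like cells. The 366 was that of Sox7 (+/−) XEN-like replicate 3, and its replicates stood at 263 and 267. Such sums weigh bright probes most. The brightest here was Rhox5, with means of 7.30, 7.24, 7.13 and 7.82 in the same order, and in the parietal list it was Sparc. Afp and Apoa1, defining products of this tissue, were not well above background in any group. Parietal endoderm markers summed to 2710 to 3037 in Sox7 (+/−) and 2397 to 2526 in Sox7 (−/−) XEN-like cells. Of these 8, 0 were called between the XEN-like groups (4.13% of all genes higher, 3.40% lower). Called lower in Sox7 (−/−) ES cells were 3 (6.57% of all genes), and 2 had a larger response in Sox7 (−/−) cells (6.99%). Of 5 trophoblast markers tested of 7 listed, 3 were called higher in Sox7 (−/−) XEN-like cells (4.13% of all genes). Called lower in Sox7 (−/−) ES cells were 2 (6.57%), and 3 had a larger response (6.99%). The 3 higher in XEN-like cells were Cdx2, Eomes and Hand1. Cdx2 was not well above background on any Sox7 (+/−) XEN-like array, so its difference there has only a bound. Hand1 was not well above background on any XEN-like array, so that difference compares background readings. Its larger response is a smaller fall (means −0.36 to −5.44 in Sox7 (+/−) and −2.05 to −4.11 in Sox7 (−/−) cells). Of the markers of macrophages, cells rich in lysosomes, 6 of 10 were tested. In the Sox7 (+/−) Dex response 1 was higher (11.0% of all genes) and 1, Cd52, lower (14.0%). In the Sox7 (−/−) Dex response 3 were higher (14.5% of all genes), namely Emr1, Cd68 and Cd14. Cd52 was at background on every Sox7 (+/−) XEN-like array, and Cd14 on every Sox7 (−/−) ES array. Only Cd68 was higher in Sox7 (−/−) XEN-like cells (4.13% of all genes) and had a larger response (2.15, with 6.99% of all genes called). Emr1 rose in both genotypes (2.54 and 2.88, the latter from ES arrays all at background), and Cd68, itself a lysosomal membrane protein, rose in Sox7 (−/−) cells (1.66) and had a difference of 1.57 between the XEN-like groups, Sox7 (−/−) cells being higher. The defining Ptprc, Lyz2 and Fcgr1 were not well above background in any group, and the list summed to 14.2 to 17.5, 19.3 to 30.2, 10.72 to 11.2 and 16.1 to 17.0 in the 4 groups in the same order. The 30.2 was that of Sox7 (+/−) XEN-like replicate 3, against 19.3 and 19.5 on its replicates. The part of these lists in the members' values was not tested.

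**Figure D4:**
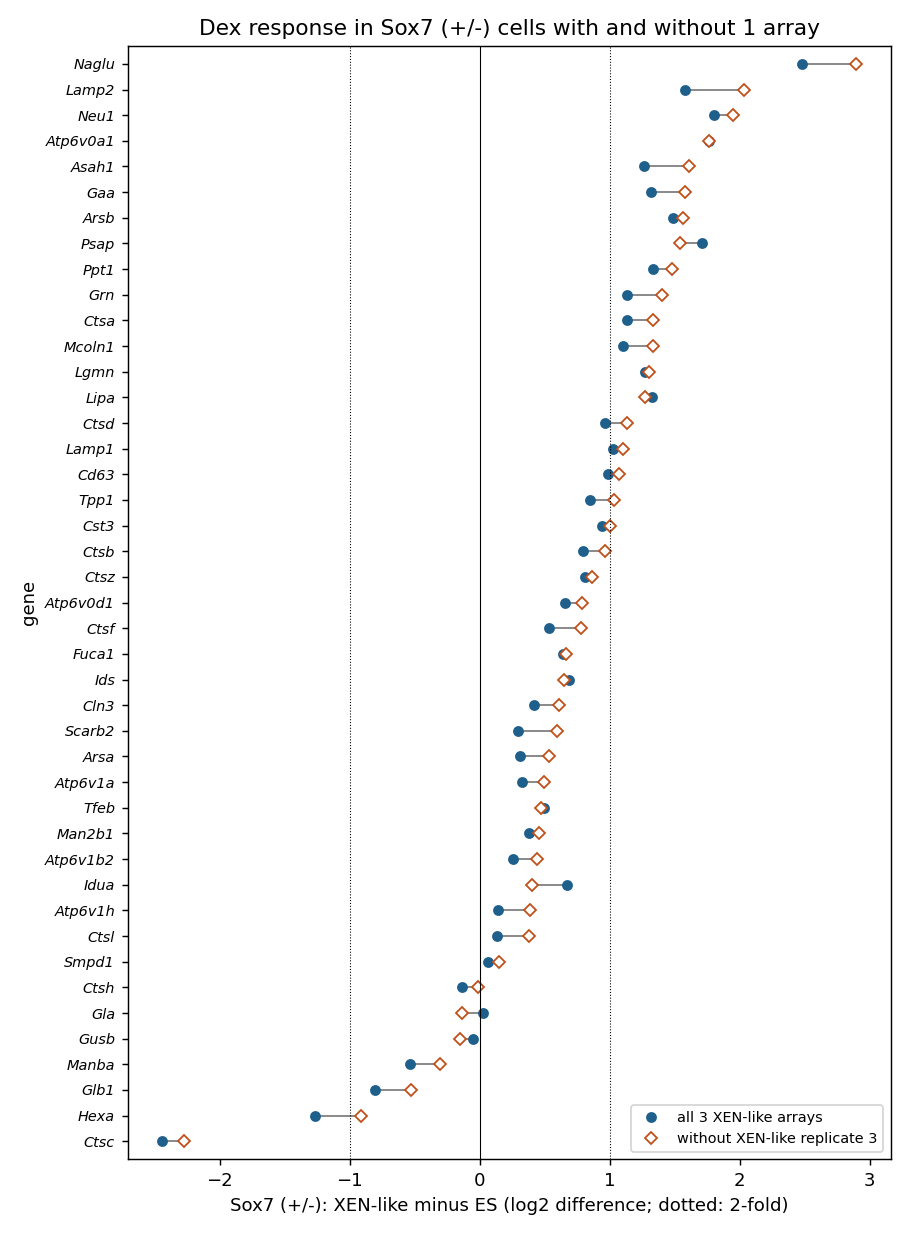
Dex response of the 43 lysosomal genes in Sox7 (+/−) cells (log2 XEN-like minus ES) with all 3 XEN-like arrays (filled circles) and without XEN-like replicate 3 (open diamonds), with dotted lines at 2-fold. Leaving the array out moved Naglu from 2.48 to 2.89 and Lamp2 from 1.58 to 2.04, and took Hexa from −1.27 to −0.92.

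Other genes of the lysosome, 115 in 6 lists that hold none of the 47, were read from the same fit. Of the 92 tested, 13 rose and 7 fell in Sox7 (+/−) cells (22 rose without XEN-like replicate 3, 6 with spike-in scaling), which is 14.1% and 7.61%, beside 11.0% and 14.0% of all genes, so the share of rises was near that of all genes. In Sox7 (−/−) cells 23 rose (25.0%, beside 14.5% of all genes) and 5 fell (5.43%, beside 14.1%). The largest rises in Sox7 (+/−) cells among probes above background on at least 1 array of each group compared were Slc36a1, a proton-coupled amino acid transporter (2.04, SE 0.14, adjusted p = 5.2e-07), Atp6v0b, a V-ATPase proton channel subunit (1.66), and Ctns, the cystine exporter (1.65). In Sox7 (−/−) cells they included Slc36a1 (2.86, SE 0.14, adjusted p = 3.23e-08) and Aga, aspartylglucosaminidase (2.64). Under the same limit the largest falls in Sox7 (+/−) cells were those of Atp6v0a4, a V-ATPase subunit of specialised epithelia (−1.93, SE 0.11, adjusted p = 2.04e-07), the epithelial adaptor subunit Ap1m2 (−1.70) and the hyaluronidase Hyal1 (−1.04). In Sox7 (−/−) cells they were Laptm5, a lysosomal membrane protein of blood cells (−3.39), Atp6v0a4 (−3.15, SE 0.11, adjusted p = 4.28e-09) and Tfec, a relative of Tfeb (−2.05). A further 4 genes called lower in Sox7 (+/−) cells (Laptm5, Slc11a1, Ctsw and Tfec) and 1 in Sox7 (−/−) cells (Slc11a1) were at background on every XEN-like array, so their falls have only a bound and were not ranked. Atp6v0a4 thus fell in both genotypes while Atp6v0a1, of the same subunit family, rose in both. Of 16 regulators related to Tfeb, 2 rose (12.5%) and 1 fell (6.25%) in each genotype, a share of rises near that of all genes.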

How the data were processed

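Total RNA from 12 samples was labelled with Cy3 and hybridised to one-colour Agilent whole-genome mouse arrays, 1 array a sample. The deposited scanner files hold spot intensity values that the authors obtained with Agilent Feature Extraction 10.7.3.1, and these were the source of every value here. The deposited table of the whole series equals the mean spot intensity within 0.50%, with neither background subtraction nor scaling between arrays, and served as an alternative only. The study's methods name NIA Array Analysis Software for the authors' own analysis, whose output was not used here.

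From the scanner files, log2 of the processed signal minus each array's 75th percentile (252 to 416 intensity units) was taken, control and outlier spots (139 to 190 an array) were left out, and spots of a probe were averaged, giving 55681 probes. The share of spots that the software marked as well above background was 41.7% to 52.3% an array. A probe was tested if so marked on every array of some group (25940 probes, 18946 genes by brightest probe). limma 3.58.1 in R 4.3.3 was fitted on the 12 arrays with 1 mean per group, with 5 contrasts, and adjusted p-values are Benjamini-Hochberg over all probes tested. With 3 arrays a group, the number of arrays limits the precision. The code was tested on simulated data. The thresholds follow the study's methods. The members, role groups, lists of other lysosomal genes and marker lists were chosen with earlier results of these data known. Named with values were members called in any comparison, or, in role groups with more than 6 of them, the 4 with the largest Dex response and any called between genotypes, plus at most 3 rises and 3 falls of other lysosomal genes in each Dex response. A result for 1 of the latter is not reported here. Gene names and probe positions (build mm9) are those of the scanner files, and the exon or UTR in which a probe lies was not analysed here. Promoters are from RefSeq (GRCm38.p6). Alternatives changed the background correction, scaling, source table, filter, probe summary, model, block, minimum fold and the replicates used.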

Additional observations from a re-analysis of the deposited data

Results flagged for a closer look

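The Dex response of 7 lysosomal genes differed between the genotypes in limma's interaction contrast (adjusted p from 2.39e-07 to 0.00116), each larger in Sox7 (−/−) cells. On the log2 scale the differences were 3.78 for Ctsh, 3.28 for Ctsc, 2.20 for Hexa, 1.34 for Ctsz, 1.23 for Neu1, 1.15 for Gusb and 1.14 for Lgmn. The Dex response of Ctsc and Hexa was −2.44 and −1.27 in Sox7 (+/−) cells (−2.27 and −0.92, the latter no longer called, without XEN-like replicate 3) and 0.84 and 0.93 in Sox7 (−/−) cells. Without Sox7 (+/−) XEN-like replicate 3 the differences were 3.67, 3.11, 1.85, 1.28, 1.09, 1.24 and 1.11 in the same order, and all 7 were still called. For Gusb a second probe gave 0.34 and was not called.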

How the results depend on the processing

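No member called in any of the 5 comparisons changed direction under any alternative run. Of the 53 single calls (a member in a comparison), quantile normalization kept 47, normexp background correction 48, scaling by the median of bright probes 49, spike-in scaling 43, the deposited table as it stands 42 and the same table scaled to the 75th percentile 50. Members called higher in the Sox7 (+/−) Dex response fell from 15 to 6 with spike-ins and 5 with the deposited table as it stands, and members called lower went from 2 to 4 with spike-ins. Members called higher in Sox7 (−/−) XEN-like cells went from 4 to 8 and 16 with the same settings, and those with a larger response in Sox7 (−/−) cells from 7 to 12 and 13. Members called lower in Sox7 (−/−) XEN-like cells went from 0 to 2 with median scaling, to 1 with no filter on dim probes, to 1 with slide as a block and to 1 on slide 2 alone, and with no filter 3 members had a smaller response in Sox7 (−/−) cells. With no minimum fold the counts higher and lower were 30 and 4 in the Sox7 (+/−) Dex response, 35 and 1 in the Sox7 (−/−) Dex response, 18 and 3 between XEN-like groups, 6 and 9 between ES groups and 15 and 1 for the difference in response. This follows from the construction, and the cause of the other shifts was not tested. Except with no minimum fold, the shares of all genes called under the alternatives are not given here.

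Leaving out each replicate in turn gave 12 to 19 rises and 1 to 2 falls in the Sox7 (+/−) Dex response, 22 to 25 and 0 to 0 in the Sox7 (−/−) Dex response, 4 to 6 and 0 to 2 between XEN-like groups, 0 to 0 and 2 to 3 between ES groups, and 7 to 8 and 0 to 0 for the difference in response. The single fall in Sox7 (+/−) cells was without XEN-like replicate 3, and the 2 members lower in Sox7 (−/−) XEN-like cells (Idua and Psap) were without Sox7 (+/−) XEN-like replicate 2. Of the other lysosomal genes, spike-in scaling gave 6 rises in the Sox7 (+/−) Dex response, 0 lower between XEN-like groups, 1 higher and 2 lower between ES groups, and 13 larger and 0 smaller responses in Sox7 (−/−) cells, from 13, 2, 3, 1, 8 and 1. Without Sox7 (+/−) XEN-like replicate 3 there were 22 rises and 3 smaller responses. These alternatives for the other lysosomal genes and the slide 2 fit were chosen after seeing the data.

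Whether the replicate numbers pair the arrays was not settled. Deviations of same-numbered arrays correlated at −0.051 to 0.126 and those of different numbers at −0.139 to 0.101. The ranges overlap, but 8 of 12 arrays had their best partner under their own number. With the replicate block 15 members rose in the Sox7 (+/−) Dex response and 22 in the Sox7 (−/−) Dex response, and all 53 calls were kept. Signal over background limits Ctse, Ctsk, Ctso, Ctss and Arsb.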
